A study of Mus musculus with 15 samples.

Results

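Keratins are the intermediate filament proteins of epithelial cells, and the account below follows every keratin gene on the arrays through mouse embryonic stem cells (ESCs) without Nat1 and in such cells labelled as given a Map3k3 transgene and its inducer. The members were all genes whose symbol is Krt followed by digits, without the keratin-associated protein genes. The arrays carried 64 probes for 53 such genes, out of 21368 genes that could be named. Of the 53 genes, 26 passed the filter on dim probes and were tested, among 14441 tested genes in all.

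RNA was measured on 15 single-colour Agilent arrays, 3 in each of 5 groups of ESCs grown on gelatin. The groups were wild-type cells, Nat1-null cells (null cells), and 3 groups of Nat1-null cells with a tet-inducible transgene. These were Map3k3 cells without doxycycline (Dox), Map3k3 cells with Dox, and EGFP cells with Dox. Every group but the wild-type is therefore labelled as lacking Nat1. The words "induced" and "with Map3k3" below stand for Map3k3 cells with Dox, and "uninduced" for the other groups labelled as Nat1-null, as the labels have it and not from a measured Map3k3 level. Nat1 of the labels is the translation factor gene Eif4g2, Map3k3 encodes a kinase that feeds into MAP kinase cascades, and the control transgene makes the fluorescent protein EGFP. The labels do not say how many clones each line came from or whether replicates were grown apart, so the spread behind each p-value may be technical.

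Levels are log2 signals relative to the 75th percentile of all non-control probes of the same array, which lay between 494 and 614 signal units. On each array 42.7 to 53.9% of probes were well above background, and the lowest share belonged to Map3k3 with Dox array 2. The Eif4g2 probe fell 6.05-fold in null cells (adjusted p = 2.24e-08), and whether it lies in the deleted part was not examined. The Map3k3 probe was above background on all 15 arrays, with mean levels of -0.55 in wild-type, -0.78 in null, -0.69 in Map3k3 cells without Dox, -0.50 with Dox and -0.77 in EGFP cells. It did not differ by a called amount with Dox (log2 difference 0.18, adjusted p = 0.236), and the files do not say whether it lies in the transgene, so it checks nothing about induction. Wild-type and null cells shared 1 slide and no row of it. The Map3k3 arrays lay on another slide, which held 2 of the EGFP arrays as well, so Map3k3 cells were never on a slide with wild-type or null cells. Where slide is fitted as a block below, the slide term comes from the EGFP arrays alone, array 3 against arrays 1 and 2. A call lost in that fit therefore depends on a single EGFP array.

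A keratin filament is built from pairs of a type I and a type II keratin. In mammals the pair Krt8 and Krt18, later joined by Krt7 and Krt19, is typical of single-layered epithelia and appears first in the trophectoderm, the outer layer of the blastocyst. Krt5 and Krt14 mark the basal layer of stratified epithelia, Krt1 and Krt10 the layers above it, Krt6, Krt16 and Krt17 wounded or appendage epithelium, and a further set of keratins makes hair, nail and the inner root sheath. Filaments are anchored at cell junctions through plakins and desmosomes.

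Called genes, those with an adjusted p below 0.05 and a change of 1.5-fold or more, are the ones said to have risen or fallen. In null against wild-type cells 17 of the 26 keratins were called, 15 lower and 2 higher. For Krt12, 1 of the 15, the measurable fold is only a bound of 1.23, under the fold minimum. Among all tested genes 37.9% were called, 20.5% lower and 17.3% higher. The median log2 difference was -1.32 over the keratins and 0.07 over all genes. When arrays were scaled on probes above background everywhere, the share of higher genes among all calls moved from 45.8% to 34.2% and the median of all genes from 0.07 to -0.07, and the keratins still split into 2 higher and 15 lower. No overlap between null and wild-type arrays was seen in 20 of the 26 keratins, beside 71.9% of all genes.

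In Map3k3 cells with Dox 12 keratins were called against the same cells without Dox, 11 higher and 1 lower, where 17.9% of all genes were called, 12.3% higher and 5.59% lower. Krt12, 1 of the 11, was above background on 1 of those 6 arrays, so no fold is given for it. Against EGFP cells with Dox 10 keratins rose and 0 fell, where 18.1% of all genes were called, 12.4% higher and 5.67% lower. These comparisons share the arrays of Map3k3 cells with Dox. The median log2 difference of the keratins was 0.53 and 0.41, beside -0.07 and -0.09 over all genes. Arrays did not overlap for 15 keratins against cells without Dox, beside 50.1% of all genes, and for 13 against EGFP cells, beside 49.3%. In bulk RNA, more cells with a keratin and more keratin RNA per cell cannot be told apart.

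The 10 keratins that rose against both controls were Krt7, Krt8, Krt13, Krt14, Krt16, Krt18, Krt19, Krt20, Krt42 and Krt81, and each of the 10 was among those that fell in null cells. The share of all rising genes that also fell in null cells is not given here, so this overlap has no background beside it. Krt7, Krt20 and Krt81 passed the filter only through wild-type cells and Map3k3 cells with Dox, which selects for low values in the other groups. Map3k3 cells without Dox differed from null cells in 0 keratins by limma's test, where 0% of all genes were called and 4 keratins had an unadjusted p under 0.05. EGFP cells with Dox differed from null cells in 0 keratins as well, where 0.00692% of all genes were called and 1 keratin had an unadjusted p under 0.05.

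Detection gave a first view of the family. Wild-type cells had 25 keratin genes well above background on all 3 arrays, null cells 16, Map3k3 cells without Dox 18, Map3k3 cells with Dox 17, and EGFP cells 16. Over all probes the shares above background on all 3 arrays were 51.0, 44.8, 48.9, 41.8 and 45.1% in the same order, and they moved with the slide row, 50.8 to 53.9% per array in row 1 and 42.7 to 49.1% in row 2. The part of the slide row in the keratin counts was not tested. Of the 27 genes that did not pass, 21 were above background on no array and 6 on 1 or 2 arrays, and their highest level was -2.68. Hair and nail keratins were the largest class among them, with 11 of 14 not passing, while all 6 simple epithelial keratins passed.

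**Figure D1:**
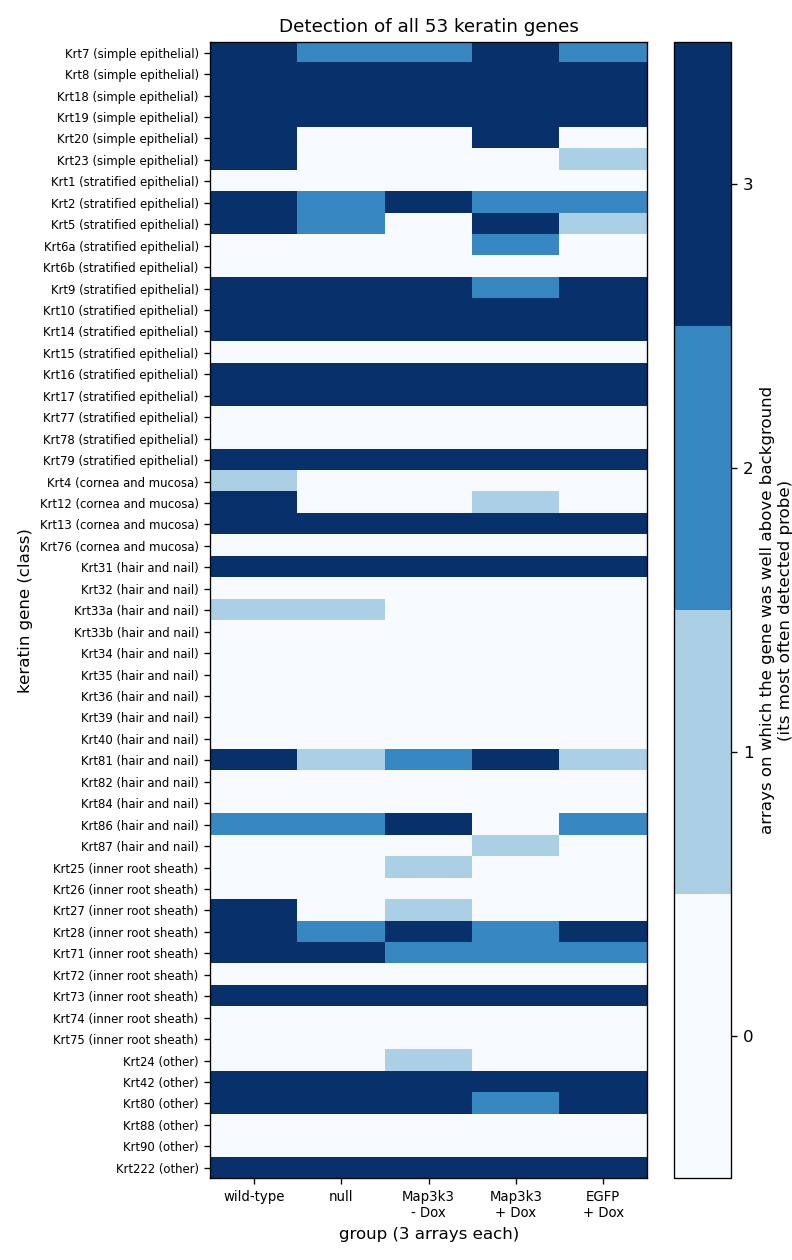
Number of arrays (0 to 3) in each of the 5 groups on which each of the 53 keratin genes was well above background, taking the gene's most often detected probe. Krt8, Krt18 and Krt19 were above background on every array, Krt20 on the wild-type arrays and those of Map3k3 cells with Dox, and most hair keratins on none.

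A gene that passed only through some groups was not well above background on at least 1 array of each other group. This favours lower values there without forcing them, as Krt5 had its highest mean in null cells (-2.74). Krt12, Krt23 and Krt27 passed through the wild-type arrays alone, Krt5, Krt7, Krt20 and Krt81 through wild-type cells and Map3k3 cells with Dox, and Krt86 through Map3k3 cells without Dox. The 13 keratins above background on all 15 arrays are free of this. Of those 13, 8 fell and 1 rose in null cells, and 7 rose and 0 fell with Map3k3 against each control, with median log2 differences of -1.12, 0.75 and 0.75.

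By class, all 6 simple epithelial keratins were called lower in null cells, and 5 of 6 higher with Map3k3 against each control. Only Krt8, Krt18 and Krt19 of these were above background on all arrays, and all 3 fell in null cells (median -2.96) and rose with Map3k3 (medians 4.15 and 4.24). Of 8 stratified epithelial keratins 3 fell and 1 rose in null cells, and 2 rose with Map3k3 against each control, and these calls all lay among the 5 members above background on all arrays. Both keratins of cornea and mucosa were called lower in null cells and higher with Dox, but only Krt13 was above background on all arrays. Of 4 keratins of the inner root sheath and companion layer 2 fell in null cells and 0 were called with Map3k3, with 0 at an unadjusted p under 0.05 as well. In null cells 11 of 16 type I and 4 of 10 type II keratins were called lower.

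**Figure D2:**
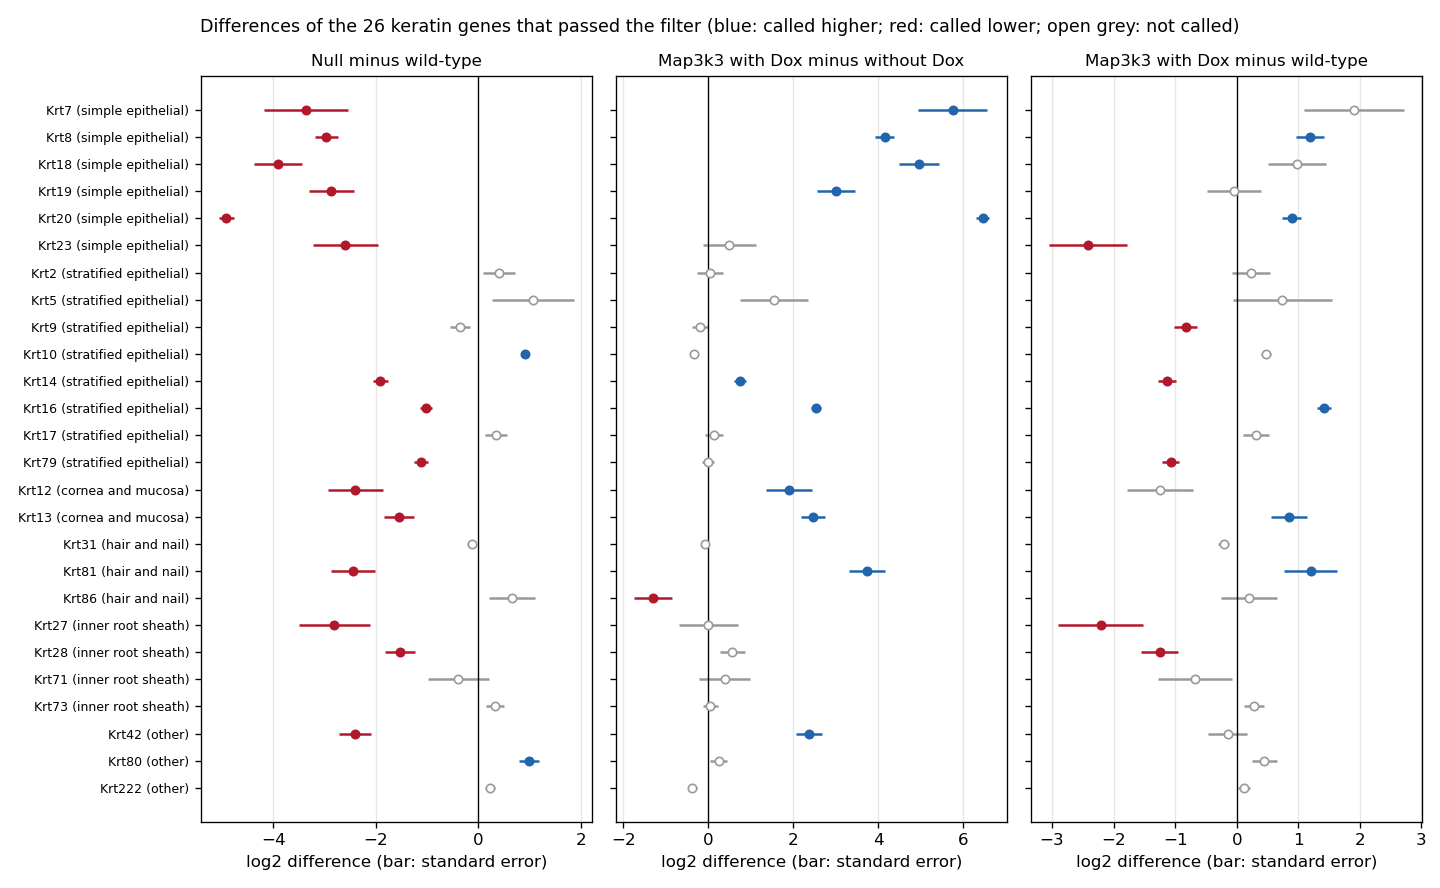
Log2 differences of the 26 tested keratin genes, grouped by class, with standard errors, for null minus wild-type, Map3k3 with minus without Dox, and Map3k3 with Dox minus wild-type. The simple epithelial genes at the top fell in null cells, 5 of 6 of them rose with Map3k3, and Krt23 did not follow.

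The 250 bases upstream of the start sites of the simple epithelial keratins show the sequences next to these genes. They come from RefSeq on build GRCm38.p6, are written in the direction of the gene, and carry in capitals the matches to 5 short motifs searched on both strands. AP-1 factors, among them Fos and Jun, bind TGANTCA. AP-2 factors of epithelia and trophectoderm bind the palindrome GCCNNNGGC. The sequence AGATAA is bound by zinc finger factors such as Gata3. The Hippo pathway factors of the TEAD family bind GGAATG. The fifth motif is the core promoter sequence TATAAA, known as the TATA box. Krt8 lies on the minus strand at chr15:102004343-102004592, Krt18 on the plus strand at chr15:102027966-102028215, and Krt7 on the plus strand at chr15:101412153-101412402. Krt20 lies on the minus strand at chr11:99438154-99438403 and Krt23, which did not rise with Map3k3, on the minus strand at chr11:99493121-99493370.
Krt8: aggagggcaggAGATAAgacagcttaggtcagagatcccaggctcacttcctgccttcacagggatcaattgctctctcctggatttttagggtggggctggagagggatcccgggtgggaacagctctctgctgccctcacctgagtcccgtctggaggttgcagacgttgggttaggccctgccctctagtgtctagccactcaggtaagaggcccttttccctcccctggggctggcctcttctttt
Krt18: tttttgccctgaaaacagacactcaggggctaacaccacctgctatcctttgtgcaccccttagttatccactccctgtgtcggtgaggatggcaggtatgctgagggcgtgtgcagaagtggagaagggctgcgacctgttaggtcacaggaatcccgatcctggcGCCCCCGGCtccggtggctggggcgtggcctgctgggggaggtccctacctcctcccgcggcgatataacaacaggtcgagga
Krt7: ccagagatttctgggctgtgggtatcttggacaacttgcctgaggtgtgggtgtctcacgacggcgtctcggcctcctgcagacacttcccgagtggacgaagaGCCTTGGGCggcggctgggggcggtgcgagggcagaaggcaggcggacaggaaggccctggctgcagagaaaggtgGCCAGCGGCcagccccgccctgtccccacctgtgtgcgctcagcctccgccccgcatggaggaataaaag
Krt20: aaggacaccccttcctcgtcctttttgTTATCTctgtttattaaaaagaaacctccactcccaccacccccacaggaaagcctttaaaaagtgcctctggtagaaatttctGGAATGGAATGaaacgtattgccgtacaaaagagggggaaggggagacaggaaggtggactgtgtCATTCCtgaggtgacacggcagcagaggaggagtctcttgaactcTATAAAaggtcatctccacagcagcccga
Krt23: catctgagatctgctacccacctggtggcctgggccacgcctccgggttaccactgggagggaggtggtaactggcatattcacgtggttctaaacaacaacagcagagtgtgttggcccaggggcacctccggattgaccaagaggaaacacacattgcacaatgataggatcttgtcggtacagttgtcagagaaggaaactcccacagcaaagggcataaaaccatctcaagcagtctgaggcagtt

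Positions are counted back from the start site, with -1 the base before it. Krt18 had an AP-2 match at -83 to -75, and Krt7 had AP-2 matches at -146 to -138 and -70 to -62. Krt8 had a GATA match at -239 to -234. Krt20 had a GATA match on the opposite strand at -223 to -218, TEAD matches at -139 to -134 and -134 to -129, which share a base, and on the opposite strand at -74 to -69, and a TATA match at -29 to -24. The window of Krt23 held none of the 5 motifs. AP-2 matches occurred in 13.7% of 32851 promoter windows of the same length and GATA matches in 9.99%. TEAD matches occurred in 12.6%, AP-1 matches in 6.75% and TATA matches in 12.4%. Of 8 windows of the keratins that rose, AP-2 matches lay in 3 (Krt7, Krt18 and Krt42), GATA matches in 2 (Krt8 and Krt20), TEAD matches in 2 (Krt14 and Krt20) and a TATA match in 1 (Krt20). AP-1 matches lay in 2 windows, both of Krt13. A TATA match lay in 17 of the 37 windows of all keratins, and no motif lay in all 8 windows. Of the keratins that rose, Krt16, Krt19 and Krt81 were not matched to a window.

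Krt8 is the type II partner of the simple epithelial pair. Its level was 4.02, 3.96 and 3.99 in wild-type cells, 1.24, 0.61 and 1.26 in null cells, 1.20, 0.68 and 1.22 in Map3k3 cells without Dox, 5.41, 5.01 and 5.11 with Dox, and 1.23, 0.45 and 1.13 in EGFP cells. The null, uninduced Map3k3 and EGFP groups overlapped each other and lay below both other groups, and the Map3k3 arrays with Dox all lay above the wild-type. Krt8 fell 7.75-fold in null cells (log2 difference -2.96, SE 0.23, adjusted p = 4.1e-07). It rose 17.7-fold with Dox (4.15, SE 0.23, adjusted p = 7.04e-08) and was 19.0-fold above EGFP cells (adjusted p = 5.84e-08). Against wild-type cells Krt8 ended 2.28-fold higher (adjusted p = 0.00067).

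Krt18 is the type I partner of Krt8. Its level was 7.32, 7.30 and 7.28 in wild-type cells, 3.65, 2.48 and 4.06 in null cells, 3.54, 2.45 and 3.96 in Map3k3 cells without Dox, 8.37, 8.14 and 8.32 with Dox, and 3.52, 2.40 and 3.92 in EGFP cells. As for Krt8, the 3 uninduced null groups overlapped and the induced cells were highest. Krt18 fell 15.0-fold in null cells (log2 difference -3.90, SE 0.47, adjusted p = 1.47e-05) and rose 31.2-fold with Dox (4.96, SE 0.47, adjusted p = 6.78e-06) and stood 32.0-fold above EGFP cells (adjusted p = 6.26e-06). Its arrays with Map3k3 did not overlap the wild-type arrays, but the difference of 0.98 was not called (95% interval -0.04 to 1.99, adjusted p = 0.087).

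Krt19 is a type I keratin of simple and ductal epithelium. Its level was 4.76, 4.47 and 4.62 in wild-type cells, 2.03, 0.73 and 2.47 in null cells, 1.76, 0.88 and 2.08 without Dox, 4.79, 4.56 and 4.38 with Dox, and 1.56, 0.79 and 2.13 in EGFP cells. The wild-type and induced arrays overlapped and lay above all others. It fell 7.33-fold in null cells (adjusted p = 0.000121), rose 8.04-fold with Dox (adjusted p = 0.000236), and differed from wild-type by -0.04 (95% interval -1.0 to 0.92, not called).

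Krt7, a type II keratin of ducts and trophoblast, had the widest spread. Its level was -0.40, -0.33 and -0.45 in wild-type cells, -3.02, -5.64 and -2.61 in null cells, -3.72, -5.44 and -3.53 without Dox, 2.34, 0.12 and 2.11 with Dox, and -3.55, -4.92 and -3.76 in EGFP cells. Each uninduced null group was above background on 2 of 3 arrays. Krt7 fell 10.3-fold in null cells (log2 difference -3.36, SE 0.81, adjusted p = 0.00322), or 6.90-fold with dim arrays raised to the lowest signal well above background. With slide row as a block that difference was -2.51 and lost its call (adjusted p = 0.103), and without null array 2 it was -2.42 (adjusted p = 0.011). It rose 53.9-fold with Dox (adjusted p = 0.000173), 45.8-fold with dim arrays raised. Without Map3k3 with Dox array 2 that log2 difference was 6.45 and without the array 2 of cells without Dox 5.15, beside 5.75. Against EGFP cells Krt7 rose 48.4-fold (adjusted p = 0.000201), with a log2 difference of 5.60 that became 6.30 without Map3k3 with Dox array 2. Against wild-type cells the difference of 1.91 was not called (95% interval 0.14 to 3.69, adjusted p = 0.0578), and without Map3k3 with Dox array 2 it was 2.61 and called (adjusted p = 0.0172).

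Krt20 is a type I keratin of intestinal and urothelial lining. Its level was -1.13, -0.83 and -0.93 in wild-type cells and 0.12, -0.24 and -0.09 in Map3k3 cells with Dox. On the other 9 arrays it was not well above background, with levels of -6.03, -5.89 and -5.71 in null cells, -6.48, -6.71 and -6.39 without Dox, and -5.81, -5.97 and -6.32 in EGFP cells. Where a group was above background on no array, the fold is a bound, in which each array of that group is raised to the lowest signal among its probes well above background. Krt20 was at least 8.18-fold lower in null cells (adjusted p = 2.71e-10), and at least 22.6-fold and 16.5-fold higher with Map3k3 than in cells without Dox (adjusted p = 4.79e-11) and EGFP cells (adjusted p = 1.06e-10). It ended 1.85-fold above wild-type cells (adjusted p = 0.000221), a call lost with slide as a block (log2 difference 0.46, adjusted p = 0.141).

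Krt23 is a type I keratin of simple epithelium that went another way. Its level was -2.45, -3.04 and -2.54 in wild-type cells, -5.40, -6.13 and -4.28 in null cells, -5.78, -5.62 and -5.40 without Dox, -4.77, -4.90 and -5.64 with Dox, and -5.88, -2.86 and -4.80 in EGFP cells. Outside the wild-type it was above background on a single EGFP array. It was at least 2.49-fold lower in null cells (adjusted p = 0.00352) and at least 2.34-fold lower than wild-type in the induced cells (adjusted p = 0.00534). The latter call was lost with slide as a block (adjusted p = 0.0803).

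**Figure D3:**
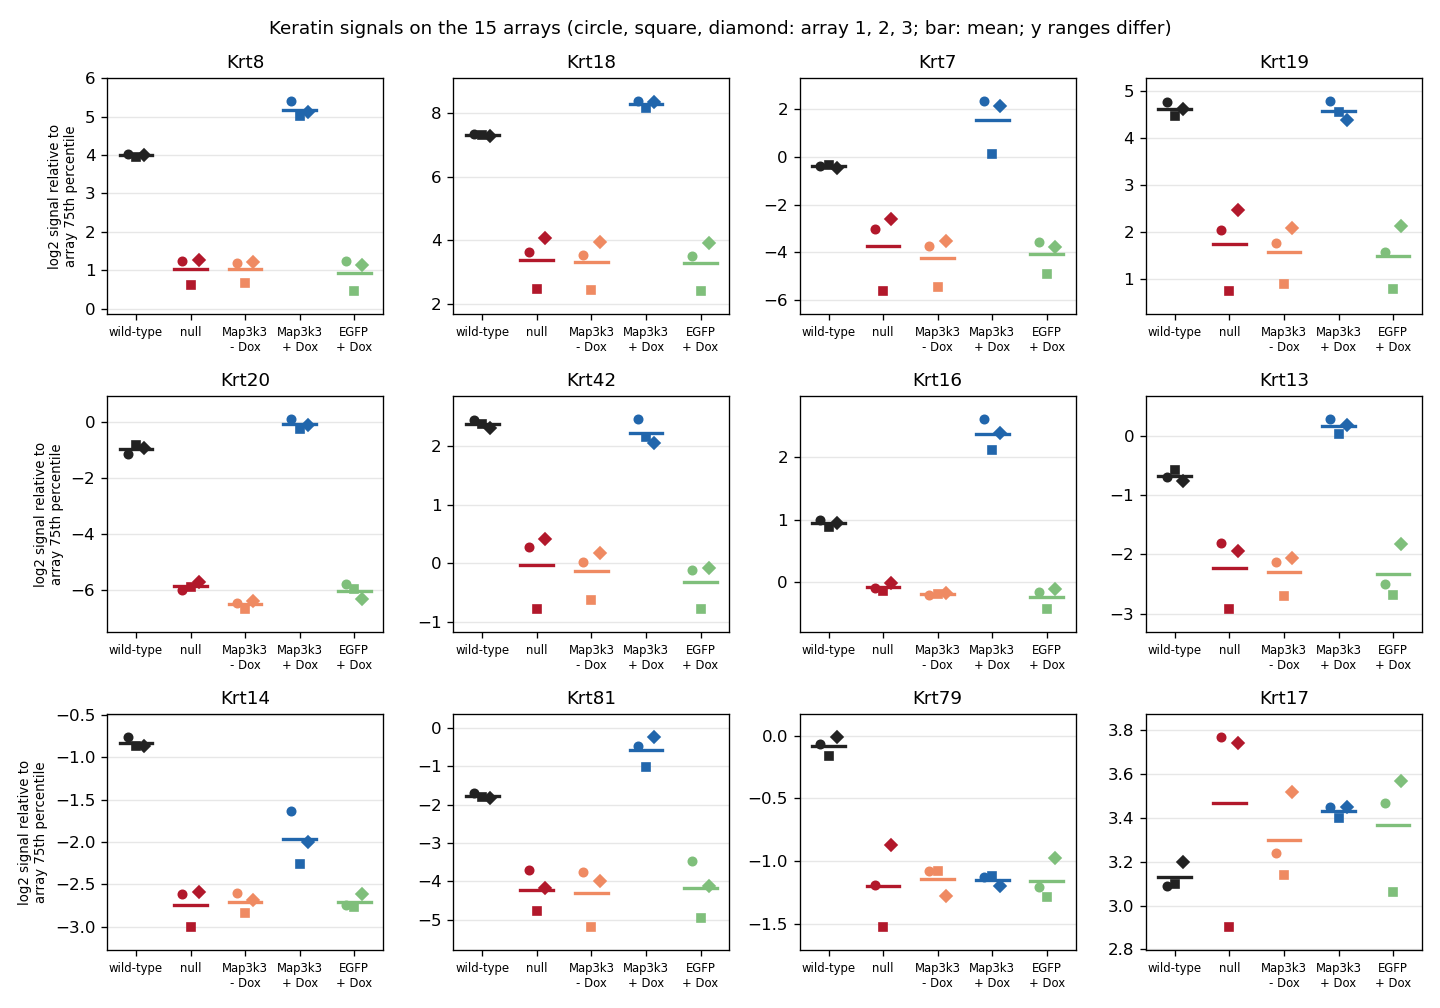
Levels (log2, against the 75th percentile of an array) on each of the 15 arrays for 12 keratins, with markers for arrays 1, 2 and 3 of a group and a bar for the mean, and a separate vertical range for each gene. In Krt7, Krt8, Krt18, Krt19, Krt42 and Krt81 the square of array 2 is the lowest of each uninduced null group. Krt79 stayed near -1.15 in all Nat1-null groups and Krt17 overlapped among them.

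In the stratified class Krt14 and Krt16 rose with Map3k3. Krt14, the type I keratin of basal cells, read -0.76, -0.87 and -0.87 in wild-type cells, -2.62, -3.01 and -2.59 in null cells, -2.60, -2.84 and -2.68 without Dox, -1.63, -2.26 and -2.0 with Dox, and -2.75, -2.77 and -2.61 in EGFP cells. The induced arrays lay between the wild-type and all others without overlap. Krt14 fell 3.76-fold in null cells (adjusted p = 4.5e-07) and rose 1.68-fold with Map3k3 against either control (adjusted p = 0.00203 and 0.00191). It stayed 2.19-fold below wild-type (adjusted p = 3.5e-05). Without Map3k3 with Dox array 1 the rises came to 0.58 on the log2 scale in each comparison, under the fold minimum. The calls of both rises were also lost with normexp on median signals.

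Krt16, a type I keratin of wounded and appendage epithelium, read 1.00, 0.88 and 0.94 in wild-type cells, -0.09, -0.14 and -0.01 in null cells, -0.20, -0.19 and -0.17 without Dox, 2.60, 2.10 and 2.37 with Dox, and -0.16, -0.43 and -0.11 in EGFP cells. Its arrays with Map3k3 all exceeded the wild-type arrays, which exceeded all others. It fell 2.03-fold in null cells (log2 difference -1.02, SE 0.11, adjusted p = 8.87e-06), rose 5.83-fold with Dox (2.54, SE 0.11, adjusted p = 1.12e-08) and stood 6.01-fold above EGFP cells (adjusted p = 1.03e-08), and ended 2.67-fold above wild-type (adjusted p = 5.68e-07).

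Krt17, a close relative that lies between Krt16 and Krt42 on the chromosome, was called in no comparison, with levels from 2.90 to 3.77 and a difference with Dox of 0.14 (95% interval -0.31 to 0.59). Krt42, another relative in that row, read 2.45, 2.38 and 2.32 in wild-type cells, 0.28, -0.79 and 0.42 in null cells, 0.02, -0.62 and 0.18 without Dox, 2.47, 2.16 and 2.06 with Dox, and -0.11, -0.78 and -0.08 in EGFP cells. Wild-type and induced arrays of Krt42 overlapped and exceeded the rest. It fell 5.33-fold in null cells (adjusted p = 2.58e-05), rose 5.18-fold with Dox (adjusted p = 8.98e-05) and 5.88-fold against EGFP cells (adjusted p = 4.75e-05). Against wild-type it differed by -0.15 (95% interval -0.82 to 0.52, not called). Krt14, Krt16, Krt17 and Krt42 are similar in sequence, and whether their probes tell them apart was not tested.

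Krt10, the type I keratin of suprabasal cells, rose in null cells on its brighter probe, at -0.02, 0.12 and 0.15 in wild-type cells against 1.08, 1.00 and 0.90 in null cells. It read 0.95, 0.83 and 0.95 without Dox, 0.56, 0.67 and 0.48 with Dox, and 0.86, 0.84 and 0.99 in EGFP cells. The rise in null cells was 1.88-fold (adjusted p = 9.34e-07), and the difference of -0.34 with Dox was under the fold minimum. A second probe for Krt10 ran the other way, with a log2 difference of -1.40 in null cells (adjusted p = 0.000103) and of 1.30 with Dox (adjusted p = 0.000507). The direction of Krt10 therefore depends on the probe.

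Krt79, a type II keratin of hair follicle and sebaceous epithelium, read -0.07, -0.16 and -0.01 in wild-type cells and -1.19, -1.53 and -0.87 in null cells. It read -1.08, -1.08 and -1.28 without Dox, -1.13, -1.12 and -1.20 with Dox, and -1.21, -1.29 and -0.98 in EGFP cells. All Nat1-null groups overlapped below the wild-type. It fell 2.17-fold in null cells (adjusted p = 2.16e-05), and with Dox it was not called (95% interval of the log2 difference -0.31 to 0.30). In induced cells it was 2.10-fold below wild-type (adjusted p = 3.07e-05).

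Krt9, the keratin of palm and sole skin, read -2.17, -2.17 and -2.43 in wild-type cells, -2.81, -2.45 and -2.61 in null cells, -2.74, -3.20 and -2.71 without Dox, -2.87, -3.38 and -3.02 with Dox, and -3.28, -2.69 and -2.86 in EGFP cells. It was called once, 1.78-fold lower in induced than in wild-type cells (adjusted p = 0.00194). That call was lost with slide as a block (adjusted p = 0.134) and with normexp on median signals. Krt2, a suprabasal keratin, lay between -4.07 and -3.05 and was not called. Krt5, the basal partner of Krt14, was not called either, and null array 3 stood apart at -0.13 from -4.34 and -3.76 on the other null arrays. That array enters the spread of the shared fit behind every comparison. With Dox Krt5 read -3.26, -2.61 and -3.33, near background, without overlap with either control. It read -4.62, -4.90 and -4.34 without Dox and -3.86, -4.55 and -4.53 in EGFP cells, below background. The log2 differences were 1.55 (adjusted p = 0.143) and 1.25 (adjusted p = 0.234).

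Krt12 and Krt13 belong to cornea and mucosa. Krt13 read -0.69, -0.58 and -0.76 in wild-type cells, -1.81, -2.93 and -1.95 in null cells, -2.13, -2.70 and -2.06 without Dox, 0.29, 0.03 and 0.19 with Dox, and -2.50, -2.68 and -1.83 in EGFP cells. Induced arrays exceeded the wild-type, which exceeded the rest. It fell 2.94-fold in null cells (adjusted p = 0.000504), rose 5.54-fold with Dox (adjusted p = 3.89e-05) and 5.68-fold against EGFP cells (adjusted p = 3.3e-05). It ended 1.80-fold above wild-type (adjusted p = 0.0221). The call against wild-type was lost without wild-type array 1 or 3, or without Map3k3 with Dox array 1 or 3 (adjusted p from 0.0514 to 0.0639), and its log2 difference of 0.85 was 1.60 with slide as a block. A second, dimmer probe for Krt13 differed by 0.54 on the log2 scale in null cells (not called) and was above background on no induced array. It was at least 1.59-fold lower in induced than in EGFP cells (adjusted p = 0.0197), the opposite direction to the brighter probe, and against cells without Dox it was not called and no fold is given. With the mean of both probes the call in null cells (adjusted p = 0.128), that against EGFP cells (adjusted p = 0.186) and that against wild-type cells (adjusted p = 0.516) were lost.

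Krt12, the corneal type I keratin, read -3.77, -3.88 and -3.45 in wild-type cells, where it was above background, and -6.34, -5.71 and -6.24 in null cells, where it was not. It read -6.83, -7.0 and -6.70 without Dox, -3.21, -5.50 and -6.13 with Dox, and -6.08, -6.32 and -6.05 in EGFP cells. Among those 9 arrays only Map3k3 with Dox array 1 was above background. The filter was passed through the wild-type alone. Krt12 was called lower in null cells (adjusted p = 0.00199), with a bound of at least 1.23-fold that is under the fold minimum. That call was lost with slide row as a block (adjusted p = 0.173) and with normexp on median signals. The fit called Krt12 higher with Dox (adjusted p = 0.0151), a difference that sets a single measured array against a group below background, so no size is given and the call is not read as a rise. The same limit holds against EGFP cells, where it was not called.

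Among hair keratins Krt81, a type II keratin of the hair cortex, read -1.70, -1.80 and -1.82 in wild-type cells, -3.71, -4.78 and -4.17 in null cells, -3.75, -5.20 and -3.99 without Dox, -0.47, -1.02 and -0.23 with Dox, and -3.46, -4.95 and -4.11 in EGFP cells. Induced arrays exceeded the wild-type, which exceeded the rest, and 1 null, 2 uninduced Map3k3 and 1 EGFP array were above background. It fell 5.45-fold in null cells (adjusted p = 0.000328), rose 13.3-fold with Dox (adjusted p = 3.41e-05) and 12.1-fold against EGFP cells (adjusted p = 4.38e-05). With dim arrays raised these folds were 4.27, 12.0 and 9.89. It ended 2.29-fold above wild-type (adjusted p = 0.0287), a call lost without any of wild-type arrays 1, 2 and 3 and Map3k3 with Dox arrays 1 and 3 (adjusted p from 0.0554 to 0.0942), and with slide as a block (adjusted p = 0.236).

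Krt86, a similar hair keratin, read -4.16, -3.85 and -5.07 in wild-type cells, -3.74, -3.90 and -3.50 in null cells, -1.80, -3.64 and -3.13 without Dox, -4.77, -3.73 and -3.98 with Dox, and -3.01, -3.87 and -3.49 in EGFP cells. It was at least 2.07-fold lower with Dox than without (adjusted p = 0.0388), where array 1 without Dox stood highest. That call was lost without Map3k3 without Dox array 1 or 3 and without Map3k3 with Dox array 1 or 3 (adjusted p from 0.0552 to 0.153). It was also lost with normexp on median signals, with no filter on dim probes and with only the 6 arrays compared. Krt86 passed the filter through Map3k3 cells without Dox alone, the higher side of this comparison. The type I hair keratin Krt31 lay between -2.21 and -1.80 and was not called.

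Krt27 and Krt28 are type I keratins of the inner root sheath. Krt27 read -4.03, -2.15 and -3.44 in wild-type cells, -6.07, -5.96 and -6.02 in null cells, -5.97, -6.78 and -3.49 without Dox, -5.96, -4.83 and -5.44 with Dox, and -5.86, -5.91 and -5.54 in EGFP cells. It was at least 1.73-fold lower in null cells (adjusted p = 0.00362) and at least 1.63-fold lower than wild-type in induced cells (adjusted p = 0.0148). The latter call was lost without wild-type array 2 (adjusted p = 0.0696) or Map3k3 with Dox array 1 (adjusted p = 0.0551), and with slide as a block (adjusted p = 0.286).

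Krt28 read -1.88, -1.77 and -1.87 in wild-type cells, -3.50, -3.93 and -2.70 in null cells, -3.55, -4.07 and -3.35 without Dox, -2.80, -3.57 and -2.91 with Dox, and -3.46, -3.87 and -3.34 in EGFP cells. All Nat1-null groups overlapped below the wild-type. It fell 2.90-fold in null cells (adjusted p = 0.000745), with 2 of 3 null arrays above background, and was 2.38-fold below wild-type in induced cells (adjusted p = 0.00306), a call lost with slide as a block (adjusted p = 0.216). Krt71 and Krt73, type II keratins of the same layer, were not called, with levels from -5.17 to -2.48 and from 0.15 to 1.08.

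Krt80, a type II keratin of several epithelia, was the other gene to rise in null cells. It read -3.45, -3.89 and -4.24 in wild-type cells, -2.94, -2.85 and -2.83 in null cells, -3.58, -3.91 and -3.50 without Dox, -3.34, -3.52 and -3.36 with Dox, and -2.82, -2.91 and -3.47 in EGFP cells. The rise was 1.98-fold (adjusted p = 0.00102) and was lost with slide row as a block (adjusted p = 0.0551) and with normexp on median signals. Krt222 lay between 2.24 and 2.96 and was not called.

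The end point of the response differed between members. In induced against wild-type cells 11 of 26 keratins were called, 5 higher and 6 lower, where 38.3% of all genes were called, 18.4% higher and 19.9% lower. Arrays of these groups did not overlap for 16 keratins, beside 70.7% of all genes. Of the 10 keratins that rose with Map3k3 against both controls, Krt8, Krt13, Krt16, Krt20 and Krt81 exceeded wild-type, Krt7, Krt18, Krt19 and Krt42 were not called, and Krt14 was lower. Krt23, Krt27, Krt28 and Krt79, which fell in null cells and were not called with Map3k3, were all lower than in wild-type cells, as was Krt9. Those groups shared no slide, and with slide as a block, whose term rests on the EGFP arrays alone, 6 keratins were called, 4 higher and 2 lower. The 4 higher were Krt8, Krt13 and Krt16, with Krt10 newly called, while Krt20 and Krt81 lost their calls. The 2 lower were Krt14 and Krt79. On the mean of its probes Krt13 was not called above wild-type.

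Arrays with the same replicate number deviated together among the Nat1-null groups, and the keratins were part of this. Array 2 was the lowest in null, uninduced Map3k3 and EGFP cells alike for 13 of the 26 keratins, beside 25.3% of all tested genes. In Krt18 array 2 lay 1.37, 1.30 and 1.31 log2 units below the mean of the other arrays of the group in these 3 groups, below by 0.01 in wild-type cells and by 0.20 in induced cells. In Krt19 it lay 1.52, 1.04 and 1.06 units below in the 3 uninduced groups and 0.03 below in induced cells. Across the 8 lists used here the share was 46.7% for keratin linkers and desmosome genes and 44.4% for epithelial transcription factors. It was 33.3% for other intermediate filaments, 33.3% for stratified epithelium and 30.0% for trophectoderm markers. For pluripotency and primitive endoderm markers it was 20.0% each, and for fibroblast and feeder markers 10.0%. With replicate number as a block, the counts of keratins called in induced cells against each control stayed at 12 and 10. The count in null cells stayed at 17, though replicate numbers do not pair null with wild-type arrays.

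The position of the genes is shown by their order, since nearly all keratin genes lie in a pair of clusters. At the end of the type I cluster on chromosome 11, Krt13, Krt19, Krt14, Krt16 and Krt42 rose with Map3k3, while Krt9 and Krt17 among them were not called and Krt15 did not pass the filter. On chromosome 15 Krt8 and Krt18, separated by 2 lncRNA genes that were not measured, both rose, while the nearest tested genes on either side, Krt79 and Eif4b, a translation factor gene (-0.11), were not called. Krt78, next to Krt8, did not pass the filter, and the lncRNA gene next to Krt18 was not measured. Krt7 and Krt81 rose at the other end, with Krt80 (0.25) and Krt86 beside them not rising. The genes that rose did not form an unbroken block in either cluster.

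**Figure D4:**
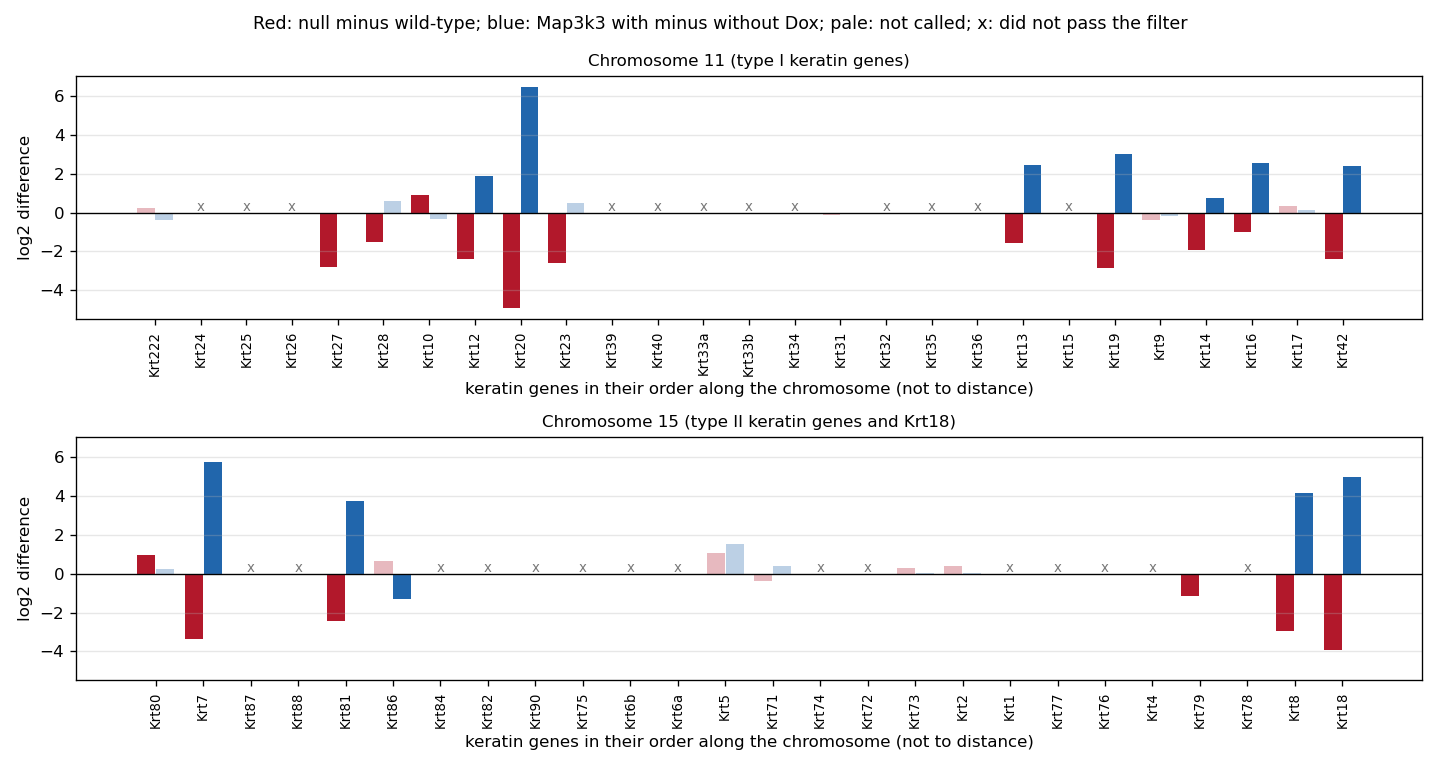
Log2 differences of the keratin genes in their order along chromosomes 11 and 15 (order only, not distance), null minus wild-type in red and Map3k3 with minus without Dox in blue, pale where not called and x where the gene did not pass the filter. Rising genes stand beside genes that were not called, such as Krt17 between Krt16 and Krt42.

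The proteins that tie keratin filaments to junctions were read beside the keratins, from a list of linkers and desmosome parts. Of 15 measured, 5 fell and 4 rose in null cells, and 6 rose and 0 fell with Map3k3 against each control, with medians of -0.11, 0.55 and 0.54. In that order the shares called were 60.0, 40.0 and 40.0%, beside 37.9, 17.9 and 18.1% of all genes. Dsp, which encodes desmoplakin, the protein that binds keratin to desmosomes, read 2.26, 2.02 and 2.02 in wild-type cells, -0.21, -0.80 and -0.04 in null cells, -0.18, -0.18 and -0.05 without Dox, 3.43, 3.42 and 3.09 with Dox, and -0.18, -0.42 and 0.13 in EGFP cells. It fell 5.46-fold in null cells (adjusted p = 3.57e-07) and rose 10.9-fold with Dox (adjusted p = 5.87e-08). As for Krt8, the induced arrays were highest, the wild-type arrays next and the other groups overlapped below them. Dsc2, a desmosomal cadherin, was at least 8.84-fold lower in null cells and at least 23.6-fold higher with Dox. Dsg2, another desmosomal cadherin, went the other way in null cells, with mean levels of -0.83 in wild-type and 0.35 in null cells. Its mean was 0.38 without Dox and 0.81 with Dox.

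The hemidesmosome integrins Itgb4 and Itga6 rose with Dox, 3.30-fold and 2.19-fold, and had risen in null cells as well, 2.11-fold and 1.85-fold. The plakins Ppl (2.22-fold) and Plec (1.73-fold) rose with Dox. Ppl had fallen 1.75-fold in null cells, a call lost without null array 2 (adjusted p = 0.0744). Evpl fell 2.99-fold in null cells and was not called with Dox (log2 difference 0.30), nor was Pkp2 (0.55), which had fallen 2.26-fold.

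Other intermediate filament genes, of neural, muscle and mesenchymal cells and the nucleus, were read beside the keratins as well. Of 15 measured, 6 fell and 0 rose in null cells, and 6 rose and 0 fell with Map3k3 against each control. The share called was 40.0% in each of these comparisons, beside 37.9% of all genes in null cells, 17.9% with Dox and 18.1% against EGFP cells. Nefl, a neurofilament gene, fell 18.5-fold in null cells and rose 1.78-fold with Dox, and remained 8.99-fold below wild-type. Nes, the nestin gene of neural progenitors, fell 10.1-fold and rose 3.57-fold, and Ina, an internexin gene, fell 9.30-fold and rose 2.60-fold. Other members were lower in null cells and did not return with Dox. In wild-type, null, uninduced Map3k3 and induced cells the means were -2.23, -5.99, -6.6 and -5.9 for Nefm, above background on wild-type arrays alone. In the same order they were -0.79, -2.54, -2.44 and -2.59 for Synm and 3.95, 3.09, 2.79 and 2.81 for Nefh. Vim, the vimentin gene of mesenchymal cells, was not called in null cells (log2 difference -1.05, adjusted p = 0.171) or with Dox (0.92, adjusted p = 0.275).

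Among 18 measured epithelial transcription factor genes 5 fell and 7 rose in null cells, 6 rose and 0 fell with Dox, and 5 rose and 1 fell against EGFP cells. The shares called were 66.7, 33.3 and 33.3% in that order, beside 37.9, 17.9 and 18.1% of all genes. Cdx2, a trophectoderm factor, was at least 1.75-fold lower in null cells and at least 42.0-fold higher with Dox. Gata3, a factor of trophectoderm and skin, fell 8.00-fold, with only 1 null array above background, and was at least 47.0-fold higher with Dox. Fosl1, an AP-1 subunit, fell 3.13-fold and rose 10.7-fold with Dox, and Jun, its partner, fell 1.81-fold and rose 2.61-fold. Trp63, the basal epithelial factor, rose 1.55-fold in null cells and was not called with Dox (-0.18), and Klf4 rose 9.59-fold in null cells and was not called with Dox (-0.54). Mean levels of Gata2 were -1.72 in wild-type and 0.65 in null cells, of Klf5 3.27 and 5.28, and of Tfap2a -3.02 and -1.65. The mean of Tfap2a was -1.39 without Dox, -0.64 with Dox and -0.71 in EGFP cells.

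Markers of other cell types moved in the same comparisons, and their part in the keratin values was not tested. Summed signals below are in units of the array's 75th percentile. Beside the marker counts, 20.5% of all genes fell and 17.3% rose in null cells, and 12.3% rose and 5.59% fell with Dox. Of 10 measured trophectoderm markers 8 fell and 1 rose in null cells and 9 rose with Dox. Their sum was 23.4 to 24.6 in wild-type, 8.27 to 12.4 in null and 32.2 to 35.3 in induced cells, with 2 members above background on no null array, and Elf5 did not pass the filter. Without Tfap2c, the brightest member, the sums were 12.0 to 12.6, 3.69 to 5.20 and 26.6 to 30.1 in the same order. Of 9 measured stratified epithelium markers 4 fell and 2 rose in null cells and 8 rose with Dox, with sums of 31.4 to 34.1 in wild-type, 25.1 to 29.3 in null and 91.3 to 131 in induced cells. Without Perp, the brightest member, they were 13.0 to 14.6, 14.7 to 16.3 and 47.4 to 56.2, with the null sums above the wild-type. Ivl, Flg, Dsg1a, Dsg3 and Dsc3 of that list did not pass the filter.

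The all-gene shares just given stand beside the following counts as well. Of 10 primitive endoderm markers 7 fell and 1 rose in null cells, and 9 rose and 1 fell with Dox. Their sums were 178 to 229 in wild-type, 100 to 118 in null and 269 to 312 in induced cells. Sparc made up 84.3 to 89.2% of the sum in wild-type, 93.4 to 95.4% in null and 89.8 to 92.4% in induced cells, and the other 9 members summed to 24.8 to 27.9, 4.57 to 7.67 and 20.5 to 31.7. Of 10 fibroblast and feeder markers 8 fell in null cells, and 4 rose and 1 fell with Dox. Their sums were 177 to 183 in wild-type, 105 to 121 in null, 121 to 149 in uninduced and 106 to 117 in induced Map3k3 cells, and Postn and Lum did not pass the filter. Fn1 made up 93.8 to 94.7% of the sum in null cells and 44.7 to 46.2% in wild-type cells. The other 9 members summed to 95.4 to 101 in wild-type, 6.41 to 6.50 in null, 5.33 to 6.76 in uninduced and 13.2 to 17.9 in induced Map3k3 cells. Of 10 pluripotency markers, all above background in every group, 6 rose in null cells and 4 fell with Dox, and their sums were 729 to 784, 1230 to 1280 and 920 to 970 in wild-type, null and induced cells.

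Within slides the comparison of induced and EGFP cells kept 10 keratins called, and within slide row 2 again 10. Within slide row 1 the comparison with and without Dox sets 1 induced array against 3 without Dox, so the lone array is assumed to vary like the other groups. There 11 keratins were called, and Krt18 differed by 5.06 and Krt8 by 4.38 on the log2 scale, beside 4.96 and 4.15 over all arrays. With slide row as a block 14 keratins were called in null cells, 1 higher and 13 lower, with Krt18 at -3.35, Krt8 at -2.64 and Krt19 at -2.23.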

How the data were processed

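The authors' scans were quantified in Feature Extraction 11.5.1.1, per the file headers, and the deposited processed signal is an intensity already corrected for background. It was turned into log2, spots of a probe were averaged without outlier-marked spots, and the array's 75th percentile was subtracted. The authors' deposited log2 values served as an alternative. Of 55681 probes 28331 were named through their RefSeq accessions (GRCm38.p6 table). Probes passed that were well above background throughout 1 group or more, and the brightest passing probe stood for its gene. One limma 3.58.1 fit (R 4.3.3) over all 15 arrays, with 10 residual degrees of freedom, gave 6 comparisons, with moderated two-sided tests and Benjamini-Hochberg adjustment over 14441 genes. Tested on simulated data for Map3k3 with against without Dox, it recovered 81% of genes changed by 1 log2 unit and 93% of those changed by 2. The simulated noise was independent between arrays and had no background floor. It held no deviations shared by replicate number, so these rates do not cover those features of the data.

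The keratins, their classes and the 8 gene lists were chosen with earlier results of these data known. Values are named for every keratin called in at least 1 comparison and, from the lists, for some of the called genes, with some uncalled members as a contrast. Equal replicate numbers pair the arrays of the Nat1-null groups, since the deviations of equal numbers correlated above 0.1 in all 3 pairs of each comparison among them (0.168, 0.338 and 0.259 for Map3k3 with and without Dox). They do not pair null or induced with wild-type arrays. The number of arrays, 3 per group, limits the precision. No array value column went unused, and protein sequences were not used here.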

Additional observations from a re-analysis of the deposited data

How the results depend on the processing

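Of the 15 alternatives listed in advance for each comparison, with leave-one-out as 1 of them, each was run, with normexp on median signals, since no mean-signal column is in the array tables used here. Slide and row subsets were chosen after seeing the data. Restricted to probes above background on all arrays, which leaves 13 keratins, the counts called were 9 in null cells, 7 with Dox and 5 in induced against wild-type cells. In the last comparison 21 were called with no filter on 53 genes and 6 with slide as a block. Leaving out 1 array gave 17 to 18, 10 to 12, 9 to 11, 0 and 9 to 12 keratins in null against wild-type, with Dox, against EGFP, in both control comparisons with null cells, and in induced against wild-type cells. With the mean of its probes, Krt10 in null cells was -0.25 (adjusted p = 0.0833). With replicate number as a block 17, 12, 10, 0, 0 and 13 keratins were called in the 6 comparisons. Among the comparisons taken as paired no keratin count changed. Krt7 and Krt18 became called above wild-type, but replicate numbers do not pair with wild-type arrays, so those counts are not read. Over all genes that fit called 40 for Map3k3 cells without Dox against null cells, beside 0 in the main fit. Statistics given without a named setting come from the main fit, which has no such block. Background limits Krt12, Krt20, Krt23 and Krt27, whose folds in null cells are bounds, and Krt86, whose fold with Dox is a bound. Dim arrays also enter the folds of other members, such as Krt7 and Krt81. Over all genes, counts in null cells moved from 5466 to 9109 with no fold minimum and 3291 with a 2-fold minimum, and with Dox from 2579 to 5751 and 1507.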
